A study of Mus musculus with 4 samples.

Results

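Described here are 10 chosen genes of the activin and TGF-β pathway in mouse pancreatic islet cells given the mitochondrial peptide MOTS-c. A further 58 genes of the pathway are followed below. The 10 are the ligand genes Inhba, Inhbb, Gdf9 and Tgfb1, the receptor genes Acvr2a, Acvr2b, Acvr1b and Tgfbr1, and the inhibitor genes Fst and Smad7. They were taken by symbol from the 22916 genes that could be named on the array, and every probe of each gene was followed, 15 probes out of 56605. Of these, 12 probes of 8 genes gave a signal well above background on 2 arrays or more and are among the 35087 probes that entered the comparison. The genes were proposed with the difference between MOTS-c and scrambled peptide on these same arrays in view, and Acvr2a and Gdf9 stand in the study's own selection of changed genes made on these arrays, so their changes are given as a description, without a test.

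MOTS-c is a short peptide encoded within the 12S rRNA gene of mitochondrial DNA, and the study asked which genes respond to it in islets of aged mice. Islets were taken from C57BL/6 mice of 60 weeks that were littermates, 4 in number. The labels give the mice as male, which the signals below did not match, and name no genetic change. The islets were dispersed to single cells. For 24 h outside the animal the cells were held with a peptide at 10 μM, which was MOTS-c in one group and a scrambled peptide in the control group. RNA was then measured on Agilent one-color arrays, 2 for scrambled (replicates 1 and 2) and 2 for MOTS-c (replicates 2 and 3). The labels do not tie an array to a mouse, and no untreated culture was analysed here, so the comparison is between peptides in one kind of culture.

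Activins are dimers of inhibin beta chains, and they signal by joining a type II receptor, Acvr2a or Acvr2b, to the type I receptor Acvr1b, which phosphorylates the transcription factors Smad2 and Smad3. TGF-β uses its own type II receptor with Tgfbr1, reaches the same SMADs, and is held back inside the cell by Smad7, while follistatin (Fst) binds activins outside the cell and keeps them from their receptors. In the pancreas, activin signaling is known from the formation of endocrine cells and from insulin secretion, and TGF-β signaling from fibrosis and arrest of the cell cycle.

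The arrays had 61.6% to 65.0% of their probes' spots well above background, and all lay on 1 slide. The MOTS-c replicate 3 array stood apart. It differed by at least 1.5-fold from the other MOTS-c array at 3959 probes, against 2242 between the scrambled arrays, and from scrambled replicate 2 at 5728, the most of any pair. The label of male sex did not match the signals, since 7 probes of Y-linked genes were well above background in 0 of 28 readings while the Xist probe was so on 4 of 4 arrays, and this held for both groups alike. Hormone genes of the islet were bright in every sample: log2 signals were between 18.5 and 18.6 for Ins2 and between 15.6 and 15.7 for Gcg, and 9 of 10 beta cell markers were measured. After limma with Benjamini-Hochberg adjustment, 0 of all probes passed an adjusted p of 0.05 (the smallest was 0.474), 2755 had an unadjusted p under 0.05, or 7.85%, and by the methods' t-test 1 probe passed. With 1.5-fold added to the unadjusted p, 3.53% of the probes were called, 1.10% higher and 2.43% lower. An exact permutation of 2 against 2 arrays cannot give a p below 0.333. Since the cells were measured in bulk, fewer cells of a type and less RNA per cell cannot be told apart.

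All signals below are log2 of the processed spot signal after quantile normalization. A level belongs to its own probe and is not set against that of another. A difference is MOTS-c minus scrambled on this log2 scale, with the standard error (SE) that limma gave it from all 4 arrays.

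Among the ligands, Gdf9 had the highest difference of all members. It encodes growth differentiation factor 9, best known as a factor secreted by the oocyte, which signals through a type II receptor and Tgfbr1. Its probe read 6.08 and 5.69 in the scrambled samples and 6.76 and 6.80 with MOTS-c. Both MOTS-c samples were above both scrambled samples, by more than either pair differed within itself. The difference was 0.90 (SE 0.17, n = 2 per group), or 1.86-fold. Leaving out each array in turn kept it between 0.71 and 1.09. With the normexp correction, which raises dim signals by an offset, it was 0.53.

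Inhba encodes the chain of which activin A is made. Its probe read 4.09 and 4.10 in the scrambled samples and 4.44 and 5.19 with MOTS-c. The scrambled samples lay close together, the MOTS-c samples were both higher, and MOTS-c replicate 3 was the high one. The difference was 0.72 (SE 0.27, n = 2 per group), or 1.64-fold, and without MOTS-c replicate 3 it was 0.34. The probe was near the limit of the array, well above background on 1 of 2 scrambled and on 2 of 2 MOTS-c arrays, and with the normexp correction the difference was 0.13. Inhbb, the chain of activin B, read 4.92 and 5.14 in the scrambled samples against 4.98 and 4.89 with MOTS-c. Its groups overlapped, with a difference of -0.094 (SE 0.14). Both genes of activin chains were thus measured at the dim end, and only Inhba had separate groups.

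Tgfb1, the gene of TGF-β1, could not be measured. Of its 2 probes, 0 of 4 arrays were well above background for either one. The processed intensities, on the linear scale and before normalization, were 7.59 and 13.9 in the scrambled samples and 8.45 and 3.15 in the MOTS-c samples for A_51_P390715, and for A_66_P135688 all 4 lay between 2.75 and 4.90. No fold change is given for them.

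The type II activin receptor gene Acvr2a has 2 probes, and they did not give the same picture. A_52_P575854 read 6.12 and 6.09 in the scrambled samples and 6.86 and 6.62 with MOTS-c. The scrambled samples were almost equal and both MOTS-c samples were clearly higher. The difference was 0.63 (SE 0.14, n = 2 per group), or 1.55-fold, between 0.51 and 0.75 when each array was left out in turn, and 0.35 with the normexp correction. A_55_P2503785 read 7.10 and 6.71 in the scrambled samples and 6.96 and 7.81 with MOTS-c. Here MOTS-c replicate 2 fell between the scrambled samples and only replicate 3 was above them. The difference of 0.48 had an SE of 0.33, and it was 0.051 without MOTS-c replicate 3 and 0.90 without MOTS-c replicate 2. The mean of both probes read 6.61 and 6.40 against 6.91 and 7.22, with no overlap and a difference of 0.55 (SE 0.16).

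Acvr2b, the other type II activin receptor, was measured by a bright and a dim probe. A_55_P2012815 read 10.32 and 10.19 in the scrambled samples against 10.36 and 10.28 with MOTS-c. A_65_P12695 read 5.73 and 5.17 against 5.96 and 5.53. In both probes scrambled replicate 2 was the lowest and MOTS-c replicate 2 the highest, and the groups overlapped. The differences were 0.064 (SE 0.13) and 0.30 (SE 0.26), and when scrambled replicate 2 was left out they were -0.0034 and 0.012.

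The type I receptor genes stayed within the spread of the arrays. Acvr1b, the partner of the activin type II receptors, read 6.07 and 6.01 in the scrambled samples and 6.23 and 5.64 with MOTS-c. The MOTS-c samples lay on either side of the scrambled pair, and the difference of -0.10 (SE 0.23) was -0.40 without MOTS-c replicate 2 and 0.19 without replicate 3. Tgfbr1, the type I receptor of TGF-β, read 11.20 and 10.79 against 11.18 and 11.29 in A_52_P4538. Its second probe, A_51_P280137, read 7.31 and 6.86 against 7.42 and 7.16. In both probes scrambled replicate 2 was the lowest sample. The differences were 0.24 (SE 0.18) and 0.21 (SE 0.21), and without scrambled replicate 2 they were 0.032 and -0.014.

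Promoters of the members were searched for the SMAD box, a short DNA element bound by SMAD proteins, which reads CAGAC or, from the other strand, GTCTG. RefSeq promoter windows of build GRCm38.p6, from 250 bases before to 50 after a gene's start, were at hand for 7 of the 10 genes, in 8 windows (Tgfbr1 has 2). Gdf9, Fst and Smad7 had none. Inhba is shown because its groups were separate, and Acvr2a because they were so in 1 of its 2 probes and in the mean of both. Acvr2b is shown as the paralog of Acvr2a whose groups overlapped in both probes. Capitals mark the SMAD box. Acvr2a is at chr2:48813859-48814158, Acvr2b at chr9:119401928-119402227 and Inhba at chr13:16011601-16011900, each on the + strand.
Acvr2a: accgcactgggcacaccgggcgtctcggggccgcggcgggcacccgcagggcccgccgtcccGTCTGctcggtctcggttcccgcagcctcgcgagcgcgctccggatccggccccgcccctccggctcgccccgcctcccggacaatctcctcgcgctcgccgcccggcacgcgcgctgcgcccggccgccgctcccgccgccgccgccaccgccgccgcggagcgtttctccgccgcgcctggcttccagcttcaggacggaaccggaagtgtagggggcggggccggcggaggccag
Acvr2b: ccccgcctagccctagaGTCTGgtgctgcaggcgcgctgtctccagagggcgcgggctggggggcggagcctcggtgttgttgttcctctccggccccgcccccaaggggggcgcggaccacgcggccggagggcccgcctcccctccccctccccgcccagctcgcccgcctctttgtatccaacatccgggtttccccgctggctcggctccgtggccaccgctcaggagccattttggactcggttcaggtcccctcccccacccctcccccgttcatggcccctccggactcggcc
Inhba: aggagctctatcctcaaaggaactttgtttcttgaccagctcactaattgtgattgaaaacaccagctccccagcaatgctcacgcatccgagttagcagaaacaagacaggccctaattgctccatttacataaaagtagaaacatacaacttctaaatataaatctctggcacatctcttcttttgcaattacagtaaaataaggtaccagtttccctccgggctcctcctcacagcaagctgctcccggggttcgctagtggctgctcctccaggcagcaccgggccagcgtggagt
The box was found 1 time in Acvr2a (its first base at position -188 from the start), 1 time in Acvr2b (at -233) and 0 times in Inhba. It was also found 1 time in 1 of the Tgfbr1 windows and 0 times in those of Acvr1b, Inhbb and Tgfb1. Of all 32851 windows of this length 49.6% hold it, and of the 8 member windows 3 do. The GC-rich motif GGCGC, also bound by SMADs and searched from the other strand as GCGCC, was in 36.9% of all windows. It was found 2 times in Acvr2a, 3 times in Acvr2b and 0 times in Inhba, and overlapped none of the boxes shown. The Acvr2a and Acvr2b windows were 80.3% and 73.3% G and C, the Inhba window 47.7%, and the median of all windows 52.7%. These matches describe letters and are not measured binding sites.

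Of the inhibitors, Fst, the gene of follistatin, was not well above background on any array (0 of 4). Its processed intensities were 3.19 and 3.52 in the scrambled samples and 3.07 and 2.88 in the MOTS-c samples, and no fold change is given. Smad7, which blocks type I receptors and is itself a known target of TGF-β, had 2 probes that differed. A_55_P2741400 read 4.72 and 4.79 in the scrambled samples against 5.09 and 5.38 with MOTS-c. The groups were separate, with a difference of 0.49 (SE 0.15), or 1.40-fold, that was 0.12 with the normexp correction. A_51_P403636, the brighter probe, read 8.40 and 8.70 against 8.87 and 8.47. MOTS-c replicate 3 lay between the scrambled samples there, and the difference was 0.12 (SE 0.20). The mean of both probes read 6.56 and 6.74 against 6.98 and 6.93, with no overlap and a difference of 0.30 (SE 0.12).

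**Figure D1:**
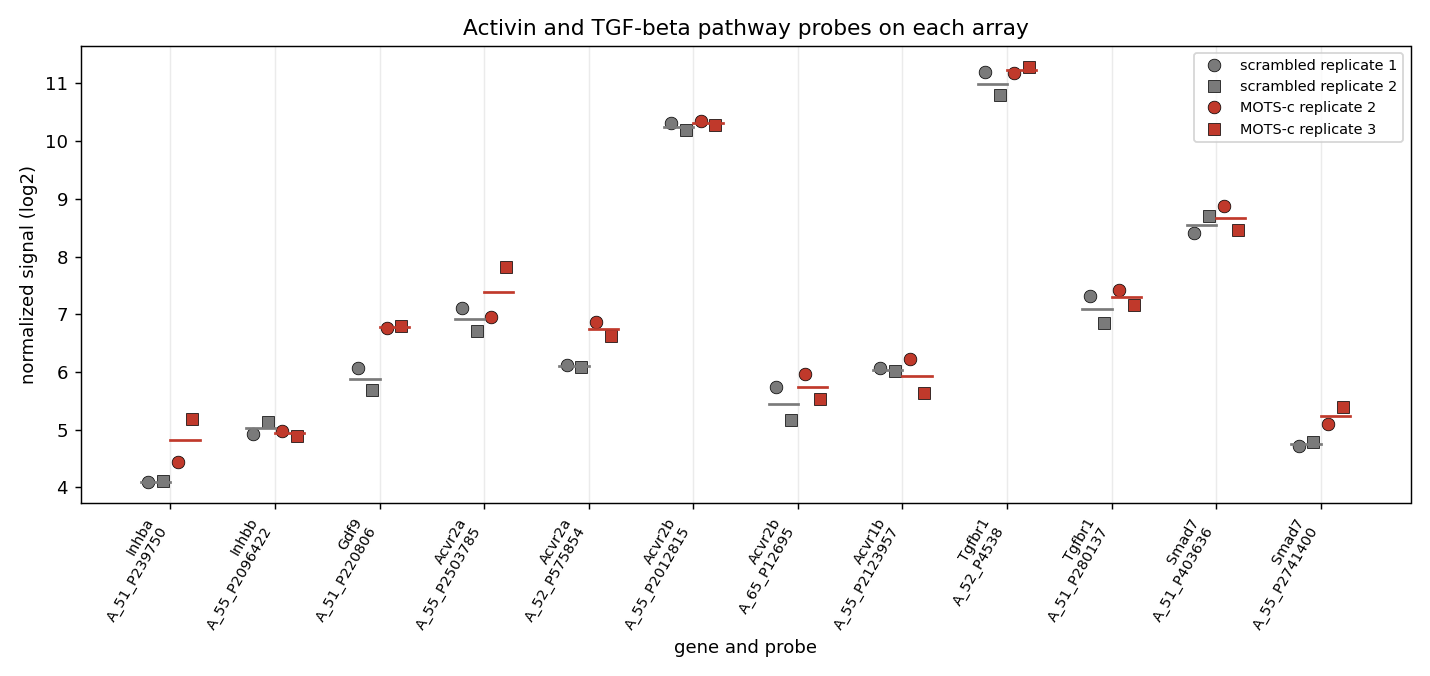
Normalized log2 signal (vertical axis) of the 12 member probes that were measured (horizontal axis, gene and probe) on each of the 4 arrays, grey for scrambled and red for MOTS-c, with the mean of each group as a line. Gdf9, Inhba, A_52_P575854 of Acvr2a and A_55_P2741400 of Smad7 have both MOTS-c samples above both scrambled samples, and the other 8 probes overlap.

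Across the 12 measured probes, 10 had a positive difference and 2 a negative one, with a median of 0.27 against 0.014 over all 35087 probes. Groups did not overlap in 4 of the 12, all higher with MOTS-c, and this is the case for 19.4% of all probes. Of the lower direction there were 0, against 18.6% of all probes. At least 1.5-fold higher were 3 (Gdf9, Inhba and 1 of the Acvr2a probes), against 1.81% of all probes, and 0 were at least 1.5-fold lower, against 3.43%. Since the members were chosen on this contrast, nothing is read from these shares. Their 12 probes also share the 4 arrays: scrambled replicate 2 was the lowest of the 4 samples in 7 of them, and the scrambled samples differed from each other by more than the groups did in 6, the MOTS-c samples in 7.

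**Figure D2:**
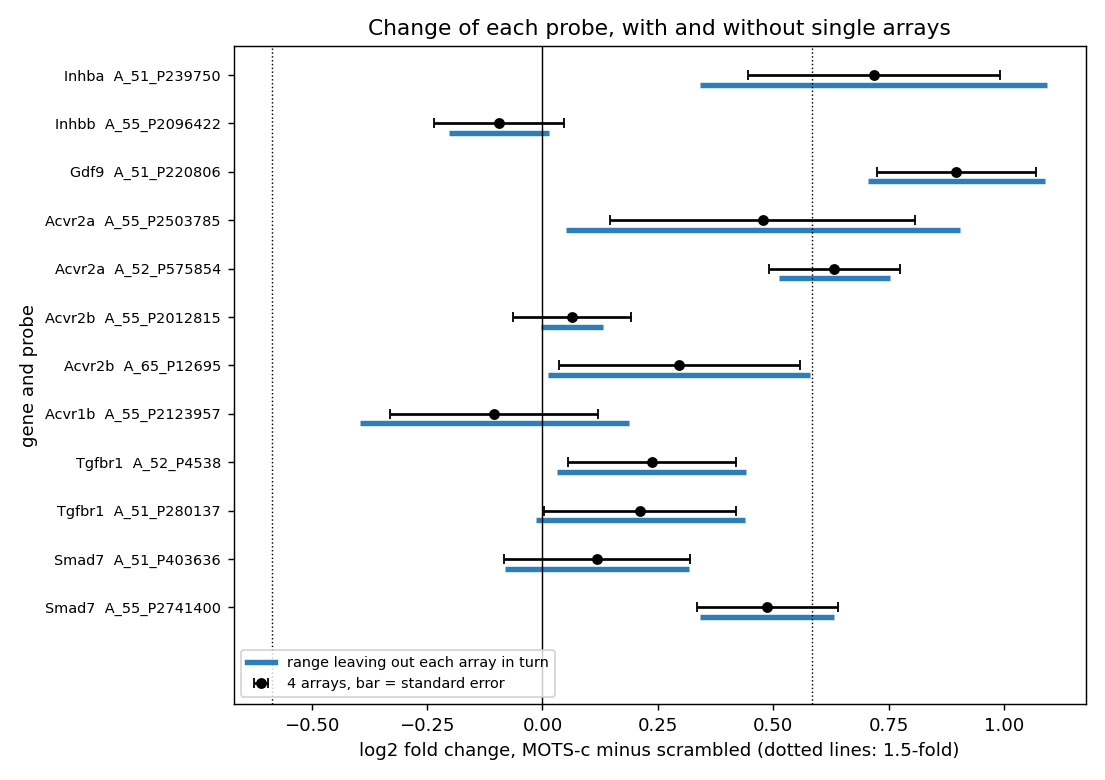
Difference between MOTS-c and scrambled (horizontal axis, log2, with SE bars, n = 2 per group) for each measured probe (vertical axis), and in blue the range of the difference when each array is left out in turn. The ranges of Gdf9, Inhba, A_52_P575854 of Acvr2a and the dim Smad7 probe stay above 0.34, and that of A_55_P2503785 of Acvr2a is wide, from 0.051 to 0.90.

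The member probes that stood out lay in the lower 2 of 4 classes of brightness. When the probes were put into 4 equal classes by mean signal, 5 member probes fell into the dimmest, 4 into the next, 3 into the next and 0 into the brightest. The 4 probes with separate groups were 2 of the 5 and 2 of the 4, and 0 of the 3 brighter ones. Separate groups, higher with MOTS-c, were found in 19.6%, 18.5%, 20% and 19.4% of all probes in the classes from dim to bright. Over all probes, a signal at least 1.5-fold higher with MOTS-c was found in 5.52%, 1.21%, 0.342% and 0.182% of the classes from dim to bright. Among the member probes it was found in 1 of the 5, 2 of the 4 and 0 of the 3. The members were chosen on this contrast, so nothing is read from these counts. Under normexp, whose offset shrinks differences of dim probes, every one of the 12 probes kept its sign. Of these, 4 had separate groups, 3 of them among the 4 above, and 0 reached 1.5-fold. The part of low brightness in the differences was not tested.

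**Figure D3:**
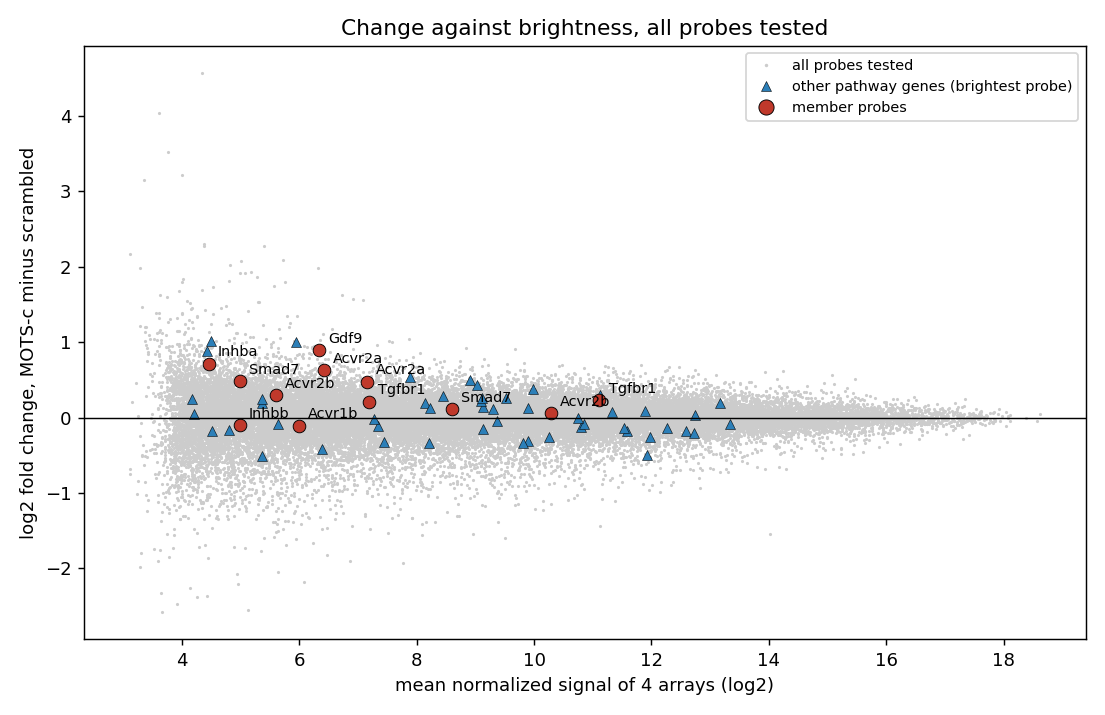
Difference between MOTS-c and scrambled (vertical axis, log2) against the mean log2 signal of the 4 arrays (horizontal axis) for all 35087 probes in grey, the other pathway genes in blue and the member probes in red with their gene names. The grey cloud widens toward dim probes, and Gdf9, Inhba and the Acvr2a probes lie among the dimmer probes, at the upper side of the cloud.

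**Figure D4:**
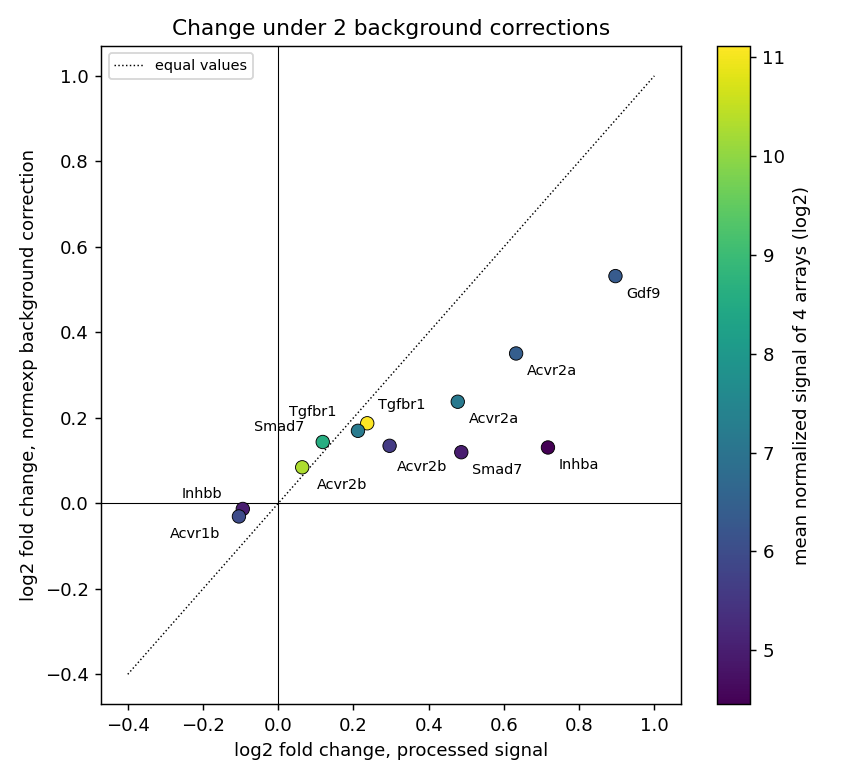
Difference between MOTS-c and scrambled (log2) of the 12 member probes with the processed signal (horizontal axis) and with the normexp background correction (vertical axis), colored by mean log2 signal, with a dotted line at equal values. Gdf9 goes from 0.90 to 0.53 and Inhba from 0.72 to 0.13, while the bright probes of Tgfbr1, Acvr2b and Smad7 stay near the line.

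The rest of the pathway was followed through 58 other genes, each by its brightest probe, and these were tested. Their lists, too, were drawn up with earlier results of these data known. Of the 58, 50 passed the filter and 8 did not (Inhbc, Mstn, Bmp15, Ltbp1, Tgfbr2, Ccn2, Fn1 and Itgb6), among them Tgfbr2, the type II receptor of TGF-β. Of the 50, 25 were above and 25 below 0, with a median difference of 0.013 against -0.0018 over all 15475 genes taken the same way. At an unadjusted p under 0.05 with 1.5-fold, 1 gene was called higher and 0 lower, against 0.995% and 3.00% of all genes, and 0 passed an adjusted p of 0.05 (limma, Benjamini-Hochberg). Groups did not overlap in 11 genes higher and 14 lower, against 19.8% and 22.6% of all genes.

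The gene called was Snai1, a repressor of epithelial genes that TGF-β is known to induce. It read 3.70 and 4.26 in the scrambled samples and 4.89 and 5.11 with MOTS-c. Both MOTS-c samples were higher, and the difference was 1.02 (SE 0.23, adjusted p = 0.509 by limma). It was well above background on 1 of 2 scrambled and 2 of 2 MOTS-c arrays, was left out by the filter that asks for all 4 arrays, and had a difference of 0.35 with the normexp correction. At the other end of the target list, Cdkn2b, the gene of the cell cycle inhibitor p15 and also a known target, read 12.24 and 12.10 against 11.82 and 11.54, a difference of -0.49 (SE 0.16, adjusted p = 0.568 by limma). Its other probe gave -0.48 (SE 0.13). Under normexp the difference of the first was -0.45, but an offset moves so bright a probe little, whatever its change. Of the 11 targets measured, 6 were above and 5 below 0.

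Among 12 measured genes for ligands and for latency, the binding of TGF-β to carrier proteins outside the cell, 5 were above and 7 below 0. Nodal, a ligand of the activin receptors, had the highest difference of the list, 0.998 (SE 0.66, adjusted p = 0.771 by limma). It read 5.19 and 5.70 in the scrambled samples and 5.49 and 7.40 with MOTS-c. The difference rests on MOTS-c replicate 3, without which it was 0.044. Ltbp2, a latent TGF-β binding protein, had the lowest, -0.51 (SE 0.14, adjusted p = 0.539 by limma), from 5.72 and 5.51 to 5.16 and 5.06. Groups were separate in 8 genes of the list, all named after their values were seen. Lower with MOTS-c were 5, Ltbp2, Ltbp3, Ltbp4, Lrrc32 and Tgfb2, with differences from -0.51 to -0.26, against 22.6% of all genes. Higher were 3, Inha, Gdf11 and Tgfb3, with differences from 0.15 to 0.20, against 19.8% of all genes. Of the 8, 0 passed the adjusted test.

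The 6 receptors and co-receptors gave 2 above and 4 below 0, from -0.18 for Eng, the co-receptor endoglin of endothelial cells, to 0.29 (SE 0.28) for Tdgf1, the co-receptor of Nodal. By this probe Tdgf1 was -0.053 without MOTS-c replicate 3. Its other, dimmer probe had separate groups, 5.36 and 5.51 against 5.62 and 5.95, with a difference of 0.35 (SE 0.17). The 8 SMADs and adaptors had the narrowest range of the 5 lists, with 4 above and 4 below 0. They ran from -0.18 (SE 0.12) for Smad1, of the BMP branch, to 0.19 (SE 0.14) for Smad4, the partner that all receptor-activated SMADs share. Smad4 has 4 probes, and their differences lay between 0.060 and 0.26.

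Of 13 inhibitors, 8 were above and 5 below 0. Smad6, the inhibitory SMAD of the BMP branch, had the highest difference, 0.88 (SE 0.56, adjusted p = 0.764 by limma), but read 3.32 and 4.67 in the scrambled samples and 5.35 and 4.40 with MOTS-c. The groups overlapped, and the probe was well above background on 1 of 2 scrambled arrays, so the difference has one side near the floor. It was 0.20 without scrambled replicate 1 and 0.23 with the normexp correction. Lefty1, which opposes Nodal, had the lowest, -0.32 (SE 0.14, adjusted p = 0.682 by limma). Fstl3, which binds activins as follistatin does and was picked out after its values were seen, read 8.58 and 8.73 in the scrambled samples against 9.21 and 9.10 with MOTS-c. Its groups were separate, with a difference of 0.50 (SE 0.13, adjusted p = 0.538 by limma). Of the 13 inhibitors, 4 had separate groups higher and 4 lower, against 19.8% and 22.6% of all genes.

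**Figure D5:**
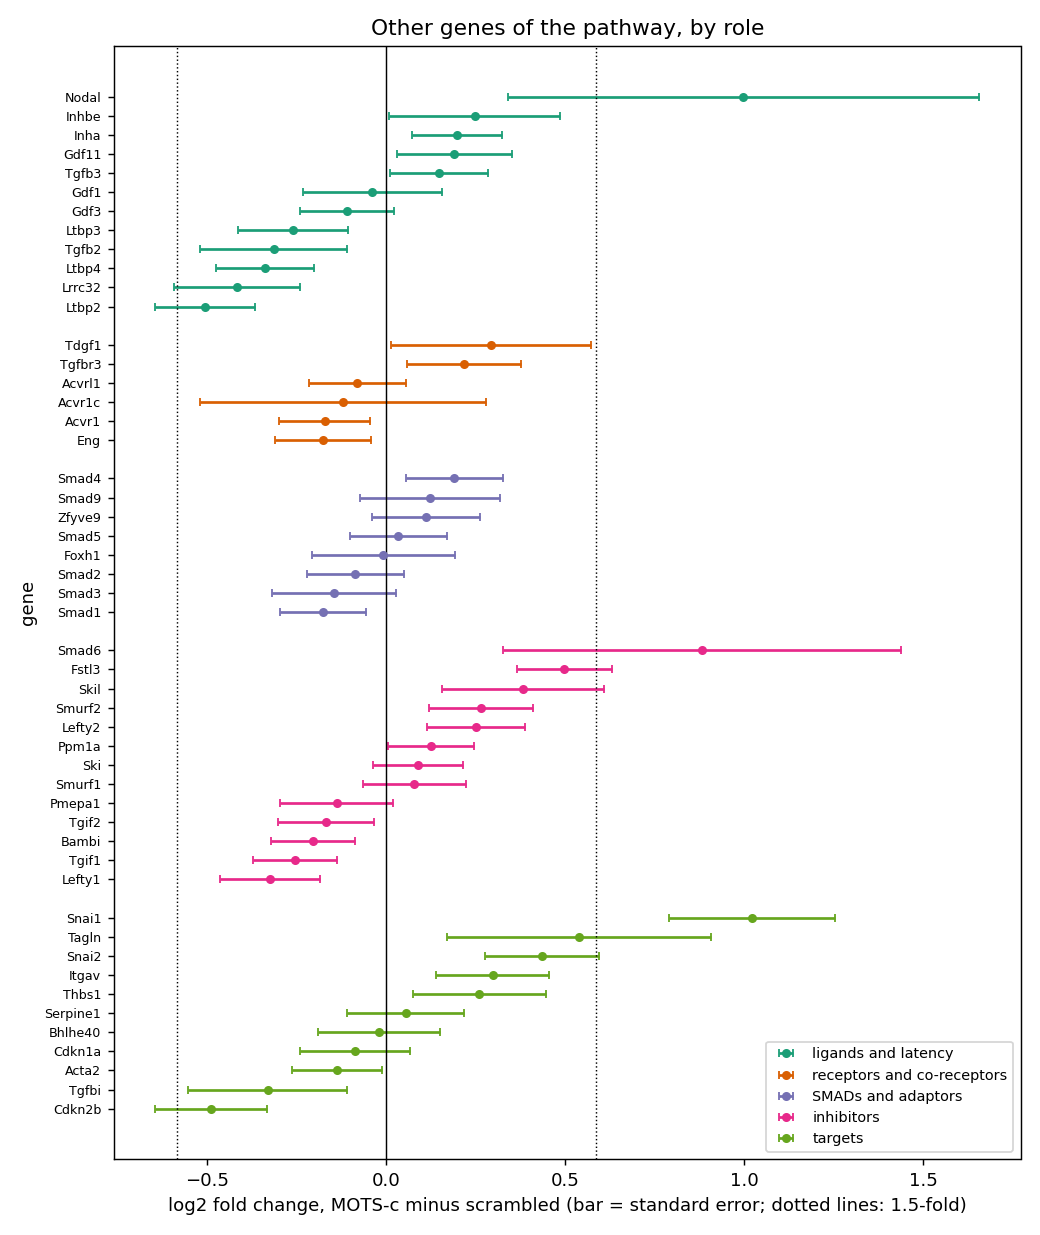
Difference between MOTS-c and scrambled (horizontal axis, log2, with SE bars, n = 2 per group) of the 50 other pathway genes measured (vertical axis), grouped by role and sorted within each role. Snai1 lies past 1.5-fold with a bar that stays there, Nodal and Smad6 have wide bars, and the SMADs and adaptors lie within 0.19 of 0.

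Markers of cell types are given beside these values, and 0 of them passed an adjusted p of 0.05 (limma, Benjamini-Hochberg, smallest 0.474). Of 8 mesenchymal markers 3 were measured, all with a difference below 0. Pdgfra was at -1.05 (SE 0.33, adjusted p = 0.567 by limma) with separate groups, Col1a2 and Thy1 overlapped, and Pdgfrb, Col1a1, Col3a1, Dcn and Lum were not well above background. The summed intensity of the 3 measured was 315 and 380 in the scrambled samples and 307 and 240 with MOTS-c. Of 9 beta cell markers measured 3 were above and 6 below 0, and Ucn3 was not well above background. Slc2a2, the glucose transporter, read 5.23 and 5.26 in the scrambled samples and 3.81 and 4.02 with MOTS-c, where it was well above background on 1 of 2 arrays, so that its difference of -1.33 (SE 0.14, adjusted p = 0.474 by limma) ends near the floor of the array. Groups of the beta cell markers were separate in 3 higher (Iapp, Nkx6-1 and Mafa), with differences from 0.072 to 0.16. They were separate in 4 lower (Ins1, G6pc2, Pdx1 and Slc2a2), with differences from -0.039 to -1.33. The shares over all genes were 19.8% and 22.6%. The summed intensity of the 9 was 901031 and 923472 in the scrambled samples and 884858 and 897249 with MOTS-c. Most of this sum comes from Ins1, Ins2 and Iapp, so it says little of the other markers. The part of these markers in the differences of the activin and TGF-β genes was not tested.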

How the data were processed

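The members and gene lists were chosen with earlier results of these data known. The authors labeled the RNA with Cy3, scanned Agilent arrays and deposited the intensities of the spots from Feature Extraction (version 11.0.1.1 per the file headers), from which the background had been removed but which were not yet scaled to other arrays. From these intensities, control and outlier spots were dropped, values were taken to log2, and spots of one probe were averaged. Probes that stood well above background on 2 or more of the 4 arrays, whatever their group, were kept and quantile normalized. Symbols came from the array files and the GRCm38.p6 gene table. limma 3.58.1 in R 4.3.3 compared the groups over 35087 probes (2 residual and 2.64 prior degrees of freedom) with Benjamini-Hochberg adjustment. The script was checked on simulated data. Named were all members, other pathway genes at an unadjusted p under 0.05 with 1.5-fold, and the highest and lowest of each list. Also named were markers for the label and, after their values were seen, Fstl3 and the ligand and latency genes with separate groups. Alternatives were a shift by the 75th percentile, normexp (offset 50, median spot signals), the authors' rounded intensity table, no filter, a filter on 4 of 4 arrays, each array left out, limma with trend, the methods' t-test and means over a gene's probes. The number of arrays limits the precision, and p-values measure the spread between these samples only. Some marker genes are not reported here.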

Additional observations from a re-analysis of the deposited data

How the results depend on the processing

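With 2 arrays per group, leaving one out leaves a lone sample that is assumed to vary like the other group. The count of probes at an adjusted p under 0.05 was 0 under every alternative except the methods' t-test, with 1. At an unadjusted p under 0.05 with 1.5-fold, 1239 probes were called, 31.2% of them higher, against 406 with normexp (18.5% higher), 457 with the methods' t-test, and 1391 to 3299 when an array was left out, the most without MOTS-c replicate 2. Without an array, 32.7% to 47.6% of the calls were higher. Of the member probes, 3 had separate groups and at least 1.5-fold, against 0 with normexp and 2 to 4 when an array was left out. Of the other pathway genes 1 was called, against 0 with normexp, with the filter on all 4 arrays and with the methods' t-test, and 1 to 5 when an array was left out (3 without scrambled replicate 1, 4 without scrambled replicate 2, 5 without MOTS-c replicate 2). Tdgf1, at 0.29 by its brightest probe, ran from -0.053 without MOTS-c replicate 3 to 0.64 without MOTS-c replicate 2. As the mean over its probes it was 0.32. Of 139 alternative values of member probes, 5 moved by more than the SD between arrays, 4 of them under normexp (A_52_P575854 of Acvr2a, Inhba, Gdf9 and the dim Smad7 probe). For the moves under normexp, the cause was not tested. No paired analysis was possible because the groups share only 1 replicate number. No slide block was fitted, since all arrays lay on 1 slide.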
